A study of Mus musculus with 4 samples.

Results

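The genes described here are the granins and the enzymes that process prohormones. They were taken by name: Chga, Chgb, Scg2 and Scg3 among the granins, the convertases Pcsk1 and Pcsk2 with their binding proteins Pcsk1n and Scg5, and the trimming enzymes Cpe and Pam. Of these 10 genes, 9 were read by the array, out of 12393 genes with a probe set. They had 10 of the 20380 probe sets that carry a single gene symbol, with a pair of probe sets for Cpe and 1 for each other gene. No probe set in the annotation used here carried Pcsk2, and that gene was not analysed here.

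Granins are acidic proteins that condense with peptide precursors in the trans-Golgi network and enter dense core vesicles, the organelles of regulated secretion. Inside the vesicles the convertases cut precursors after basic residues, carboxypeptidase E removes the residues left exposed, and peptidylglycine alpha-amidating monooxygenase amidates the peptide's end. In the dentate gyrus (DG), granule cells (GCs) pack opioid peptides and other neuropeptides into dense core vesicles of their mossy fibre terminals, and granins are widely used as markers of these vesicles.

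The study asked what electroconvulsive stimulation (ECS), which models electroconvulsive therapy in rodents, does to the GCs of adult mice, and whether earlier sessions alter the acute response. RNA of the DG was measured on 4 Affymetrix arrays, 1 for each group, and each array held the RNA of 3 pooled mice. The labels give the strain as C57Bl/6, and the study's methods name males of C57BL/6J or C57BL/6N, bought at an age of 8 weeks. The groups were 11 ECS with dissection 1 h after the last session, 10 ECS labelled 48 h after the last ECS, a single ECS at 1 h, and sham treatment at 1 h. By the study's description the 10 ECS mice had a sham session 1 h before dissection. Bilateral ECS of 25 mA was given through the ears for 1 s under isoflurane, with 100 pulses per s of 0.5 ms each and 4 sessions a week for up to 3 weeks, and sham mice were handled alike without the current. Thus 11 ECS over 10 ECS and single ECS over sham each measured a response to 1 session, with and without a course before it. In the same way, 10 ECS over sham and 11 ECS over single ECS each measured what the course left. The sham label gives 1 session, and no array held repeated sham sessions. The ECS of the course therefore cannot be told apart from its repeated isoflurane and handling, or from the time it took. With 1 array a group there was no spread within a group, no test and no p-value. The only spread at hand was how far probe sets of a shared gene differed on the same arrays, which covers probe sets and not arrays or mice. Its pooled SD was 0.27 to 0.29 on the log2 scale over all genes. Among genes with at least 200 signal units on all arrays, called bright here, it was 0.15 to 0.16.

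The values are MAS5 signals on a linear scale, and log2 ratios were taken after signals under 12 units were set to 12. The median signal was 56.7 units for 11 ECS, 62.4 for 10 ECS, 56.3 for single ECS and 69.3 for sham. The median log2 ratio of all genes was therefore not 0: it was -0.24 for single ECS over sham, -0.11 for 11 ECS over 10 ECS, -0.14 for 10 ECS over sham and 0.00 for 11 ECS over single ECS. Each log2 ratio below is best read against these medians. The activity marker Arc was at 1360 units after 11 ECS against 67.5 after 10 ECS, and at 3570 units after a single ECS against 119 in sham. The mature GC marker Calb1 was at 1507 units after 10 ECS against 3234 in sham, and the GC transcription factor Prox1 was at 57.1 to 69.8 units on the 4 arrays. In pooled tissue, fewer cells of a type and less RNA per cell cannot be told apart.

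Among the granins and processing genes, Scg2 and Pcsk1 stood higher 1 h after ECS, with and without a course before it, while the other 7 genes stayed within 1.5-fold in every comparison. A ratio of 1.5-fold or more is called here, which is a limit of size and not a test. Scg2 was called in both responses, as were 1.43% of the genes measured in both. Pcsk1 was called in the response to the 11th session and lay just under the limit in the response to the single one. No member was called lower in any comparison, and none reached 2-fold in either direction.

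Scg2 encodes secretogranin II, the precursor of the neuropeptide secretoneurin. Its signal was 3026 units after a single ECS, against 1892 in sham. It was 3563 units after 11 ECS, against 2151 after 10 ECS. Each array taken 1 h after ECS was thus above each array that was not, and sham was the lowest of the 4. The log2 ratio was 0.68 for single ECS over sham (1.60-fold) and 0.73 for 11 ECS over 10 ECS (1.66-fold). They were 4.61 and 4.89 times the spread between probe sets of bright genes, although Scg2 itself had a single probe set, so no other probe set checked its value. That spread leaves out differences between arrays and between mice, which were not measured. For single ECS over sham the ratio ranked 246 from the top among 10134 genes, and 60 among the 3817 bright genes. In the response to the 11th session it ranked 232 among 10046 genes and 41 among the bright ones. The response to the 11th session was 0.05 larger on the log2 scale than that to the single one, a difference well inside the spread between probe sets. Read against the medians of all genes the order was reversed. Scg2 lay 0.92 above the median for single ECS over sham and 0.83 above it for 11 ECS over 10 ECS. What the course left was smaller, with log2 ratios of 0.19 for 10 ECS over sham and 0.24 for 11 ECS over single ECS.

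Chgb encodes chromogranin B, a core granin of the vesicle matrix. Its signal was 5351 units after a single ECS, against 4748 in sham. It was 5956 units after 11 ECS, against 5460 after 10 ECS. Sham was lowest and 11 ECS highest, with the other arrays between them and 0.03 apart on the log2 scale. All 4 log2 ratios were above 0, at 0.17 for single ECS over sham, 0.13 for 11 ECS over 10 ECS, 0.20 for 10 ECS over sham and 0.15 for 11 ECS over single ECS. Each was close in size to the probe set spread, and they stayed above 0 under every scaling of the arrays that was tried.

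Chga encodes chromogranin A, a granin used as a marker of neuroendocrine cells. Its signal was 334 units after a single ECS against 309 in sham, and 317 units after 11 ECS against 340 after 10 ECS. The 4 arrays lay within 1.10-fold of each other, and no order among them exceeded the probe set spread. The log2 ratio of 11 ECS over 10 ECS was -0.10, and it was between -0.04 and 0.04 once the arrays were scaled to each other.

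Scg3 encodes secretogranin III, which tethers other granins to the cholesterol-rich vesicle membrane. Its signal was 1503 units after a single ECS against 1472 in sham, and 1640 units after 11 ECS against 1718 after 10 ECS. The arrays after a course were the higher ones, with log2 ratios of 0.22 for 10 ECS over sham and 0.13 for 11 ECS over single ECS. The response to a session was small, at 0.03 for single ECS over sham and -0.07 for 11 ECS over 10 ECS, where the sign changed with the scaling.

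**Figure D1:**
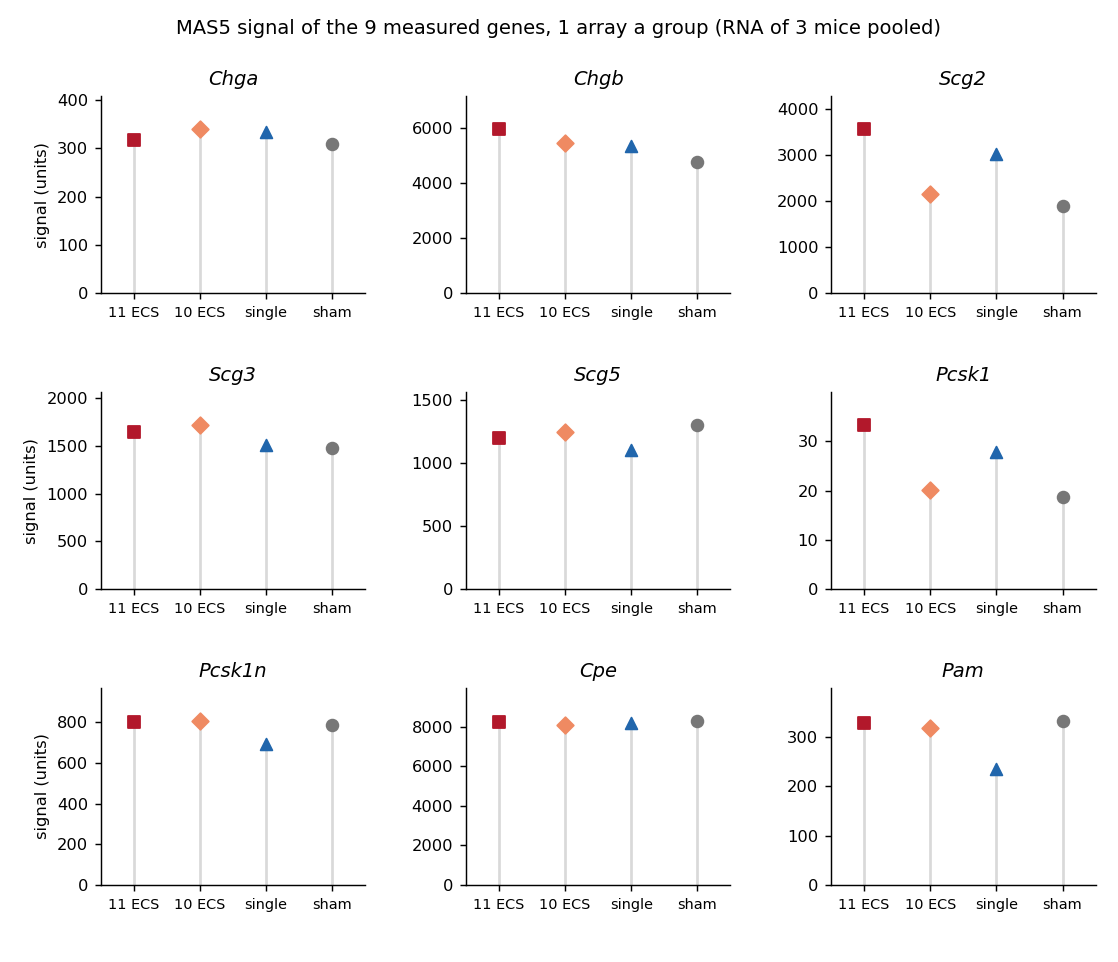
MAS5 signal in units (vertical axis of each panel, starting at 0) of the 9 measured genes on the 4 arrays, with 11 ECS, 10 ECS, single ECS and sham from left to right and 1 point for each array; there are no error bars, since each group had 1 array. Scg2 and Pcsk1 are higher on both arrays taken 1 h after ECS, Pam is lowest after a single ECS, and Cpe is nearly level.

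Stretches of promoter are shown for the genes that the results turn on, Scg2 and Pcsk1, and for a pair of granins with smaller ratios, Chgb and Chga. They come from the RefSeq promoter windows of the mouse build GRCm38.p6, which run from 250 bases before to 50 bases after an annotated start site. Capitals mark the cAMP response element TGACGTCA, the site to which the transcription factor CREB binds, or in Chga its shorter core TGACG. The lines run 5′ to 3′ on the gene's strand, for Scg2 from chr1:79440047-79440126 (minus strand), for Pcsk1 from chr13:75089768-75089797 (plus strand), for Chgb from chr2:132781542-132781621 (plus strand) and for Chga from chr12:102554841-102554920 (plus strand).
Scg2: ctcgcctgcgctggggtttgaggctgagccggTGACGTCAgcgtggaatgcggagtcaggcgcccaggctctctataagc
Pcsk1: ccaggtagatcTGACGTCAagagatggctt
Chgb: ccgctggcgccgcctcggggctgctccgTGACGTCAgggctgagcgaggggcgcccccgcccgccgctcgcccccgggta
Chga: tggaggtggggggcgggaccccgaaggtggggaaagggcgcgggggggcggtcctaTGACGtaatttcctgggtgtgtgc

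The full element began 68 bases before the start site in Scg2, 72 bases before it in Chgb and 78 bases before it in Pcsk1. The Pcsk1 window belongs to an inner start site, and a longer annotated transcript of the gene begins upstream of it. The table held 10 windows for 9 of the 10 genes and none for Cpe. The full element, which reads the same on both strands and contains the core, was found in 3 of the 9 genes. The core alone, on either strand (TGACG or CGTCA), was found in 4 others, Chga, Scg3, Scg5 and Pcsk2. Neither was in the windows of Pcsk1n or Pam. Of all 32851 windows, 1.79% held the full element and 20.8% the core. Of the 9887 genes with a window and a probe set, 2.99% held the full element and 31.4% the core. An element that began 100 to 50 bases before the start, as in Scg2, Chgb and Pcsk1, was present in 0.920% of those genes. That range brackets the sites of these 3 genes, so its small share is a description and cannot serve as a test. Of the genes with the full element, 18 of 277 (6.50%) were called higher for single ECS over sham, against 229 of 7894 (2.90%) without it. After the 11th session, 17 of 272 (6.25%) were called higher with the element, against 253 of 7843 (3.23%) without it. Scg2 is itself among those called with the element in both responses, and Pcsk1 in the later one. The median log2 ratio was -0.11 with the element and -0.24 without it for single ECS over sham. For 11 ECS over 10 ECS these medians were -0.03 and -0.11. Whether the element has a part in these ratios was not tested. Chgb carries the element and was not called in either response. A match of letters is a description of the window and not evidence that the site is used.

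**Figure D2:**
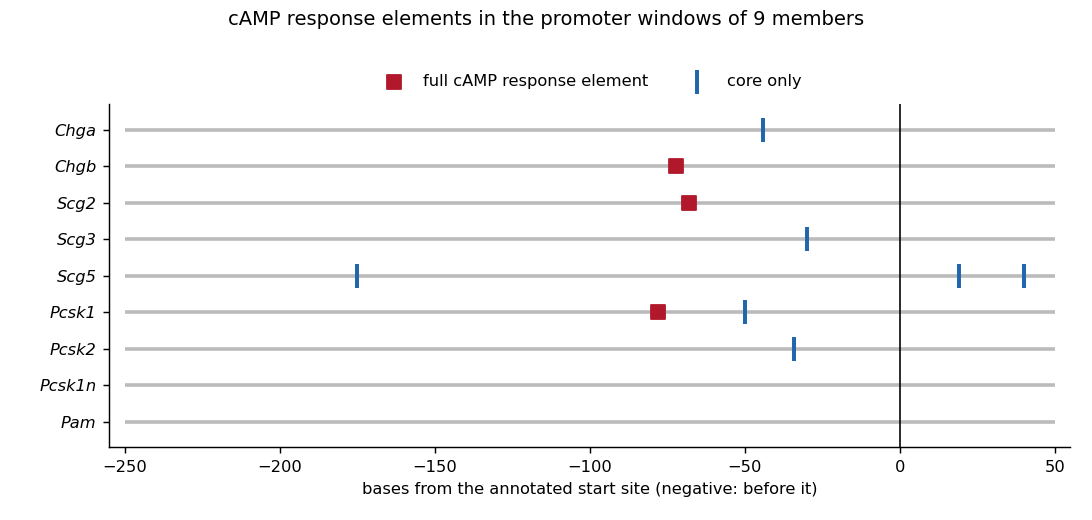
Position of the cAMP response element in the RefSeq promoter windows of 9 genes, in bases from the annotated start site (horizontal axis, negative before it); squares mark the full element and bars the core outside a full element. The squares of Scg2, Chgb and Pcsk1 lie 68, 72 and 78 bases before the start.

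Pcsk1 encodes the prohormone convertase PC1/3. Its signal was 27.8 units after a single ECS, against 18.6 in sham. It was 33.3 units after 11 ECS, against 20.2 after 10 ECS. The order of the 4 arrays was that of Scg2, but all 4 values were dim, no more than 3 times the floor of 12 units. The log2 ratio was 0.58 for single ECS over sham (1.49-fold, under the limit) and 0.72 for 11 ECS over 10 ECS (1.65-fold, past it). These were 2.02 and 2.63 times the probe set spread over all genes, and Pcsk1 had a single probe set. That spread pools dim genes with bright ones, among which it was 0.15, so it may be too narrow for a gene this dim. Pcsk1 ranked 315 among 10134 genes in the single response and 242 among 10046 in the later one. With a floor of 50 units it had no value. The log2 ratios left by the course were 0.12 for 10 ECS over sham and 0.26 for 11 ECS over single ECS.

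Pcsk1n and Scg5 encode the small proteins that bind the convertases: proSAAS, an inhibitor of PC1/3, and 7B2, a chaperone and inhibitor of PC2. Pcsk1n was at 695 units after a single ECS against 786 in sham, and at 801 units after 11 ECS against 809 after 10 ECS. Scg5 was at 1102 units after a single ECS against 1302 in sham, and at 1198 units after 11 ECS against 1246 after 10 ECS. For both genes the single ECS array was the lowest of the 4. The log2 ratios of single ECS over sham were -0.18 for Pcsk1n and -0.24 for Scg5, close to the median of all genes in that comparison. They lay between -0.04 and 0.12 for Pcsk1n and between -0.13 and 0.06 for Scg5 once the arrays were scaled to each other, so that neither had a settled direction. For 11 ECS over single ECS, where the medians of the arrays were nearly alike, the log2 ratios were 0.21 for Pcsk1n and 0.12 for Scg5.

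Cpe encodes carboxypeptidase E, which trims the basic residues left by the convertases. Its brighter probe set read 8181 units after a single ECS against 8307 in sham, and 8221 units after 11 ECS against 8107 after 10 ECS. The arrays lay within 1.02-fold of each other, the narrowest range among the 9 genes. These signals were near the top of the scale, since the highest signal of any probe set was 9177 to 9766 units on the 4 arrays, and how far a change could show there was not tested. The other probe set of Cpe was dim. It read 35.8 units after a single ECS against 25.3 in sham, and 29.6 units after 11 ECS against 25.7 after 10 ECS. Its log2 ratio of single ECS over sham was 0.50, where the brighter one gave -0.02, so the probe sets of Cpe did not give the same ratio.

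Pam encodes the enzyme that amidates peptides, a step that needs copper and ascorbate. Its signal was 235 units after a single ECS, against 333 in sham. It was 328 units after 11 ECS, against 318 after 10 ECS. The single ECS array stood apart below the other 3, which lay within 1.05-fold of each other. The log2 ratio of single ECS over sham was -0.50 (1.42-fold lower), 0.26 below the median of all genes, and 20.5% of all genes and 9.09% of bright genes had a lower one. Scaling the arrays to each other left it between -0.35 and -0.20. The log2 ratio of 11 ECS over single ECS was 0.48 (1.40-fold higher), which ranked 674 among 9971 genes and 41 among the 3817 bright ones. Both ratios use the same array, so they are not separate evidence. The response to the 11th session was 0.04, which is 0.55 above that to the single session. This was the largest difference of responses among the 9 genes, and the same single array enters it.

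**Figure D3:**
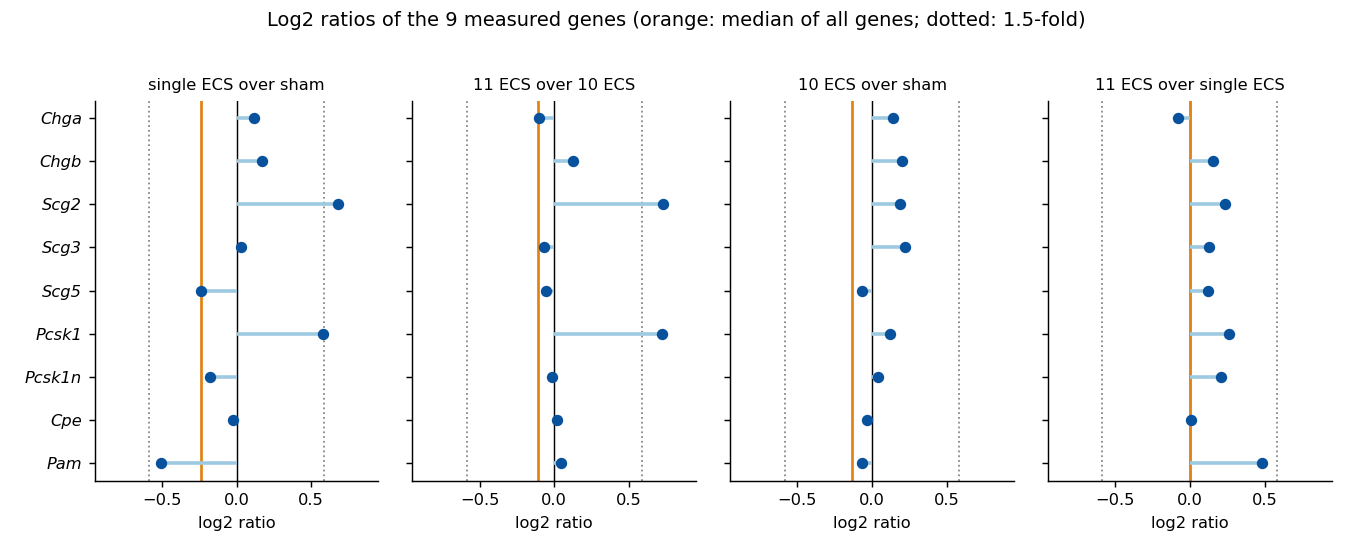
Log2 ratio (horizontal axis) of the 9 measured genes in the 4 comparisons; points are single values with no error bar, the orange line is the median of all genes and dotted lines mark 1.5-fold. Scg2 lies past the limit in both responses at 0.68 and 0.73, Pcsk1 lies just under it at 0.58 and past it at 0.72, and Pam has the lowest value, -0.50, for single ECS over sham.

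The counts of calls stood beside these shares of all genes. For single ECS over sham, 1 of 9 genes (Scg2) was called higher, against 3.08% of all genes, and 0 were called lower, against 15.4%. The 15.4% moved with the scaling. Among called genes 16.7% were higher on the deposited scale, 34.7% after scaling to the same trimmed mean, 50.3% after quantile normalization and 57.5% after scaling to the same median. With each of these 3 scalings Pcsk1 joined Scg2, for 2 of 9, while the share of all genes called higher was 4.37% with the same trimmed mean, 5.61% with quantile normalization and 6.60% with the same median. For 11 ECS over 10 ECS, 2 of 9 (Scg2 and Pcsk1) were called higher, against 3.48% of all genes, and 0 lower, against 6.92%. Here 33.5% of called genes were higher as deposited and 44.1% to 56.2% under the other scalings. For 10 ECS over sham, 0 of 9 were called in either direction, against 2.98% higher and 7.2% lower. The higher share of called genes was 29.3% as deposited and 50.7% to 53.3% otherwise. For 11 ECS over single ECS, 0 of 9 were called in either direction, against 4.39% higher and 4.31% lower. A 2-fold ratio in either direction was reached by 0 of the 9 genes, against 4.1% of all genes for single ECS over sham, 2.27% for 11 ECS over 10 ECS, 1.93% for 10 ECS over sham and 1.61% for 11 ECS over single ECS.

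The shares among bright genes are given as well, since 8 of the 9 genes, all but Pcsk1, were bright. Of the 3817 bright genes, 1.91% were called higher for single ECS over sham and 1.57% for 11 ECS over 10 ECS. In both responses together 51 bright genes (1.34%) were called higher, and Scg2 was 1 of them.

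As a list, the 9 genes lay above the middle of all genes. Their median log2 ratio was 0.03 for single ECS over sham, 0.02 for 11 ECS over 10 ECS, 0.12 for 10 ECS over sham and 0.15 for 11 ECS over single ECS. This was 0.27, 0.13, 0.25 and 0.15 above the median of all genes. For 10 ECS over sham, all 9 lay above the median of all genes while their own ratios spanned only -0.07 to 0.22. For single ECS over sham, 7 of 9 lay above it, and Pam and Scg5 did not. On the deposited scale, sham was the lowest of the 4 arrays for Chga, Chgb, Scg2, Scg3 and Pcsk1, and single ECS was the lowest for Scg5, Pcsk1n and Pam.

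**Figure D4:**
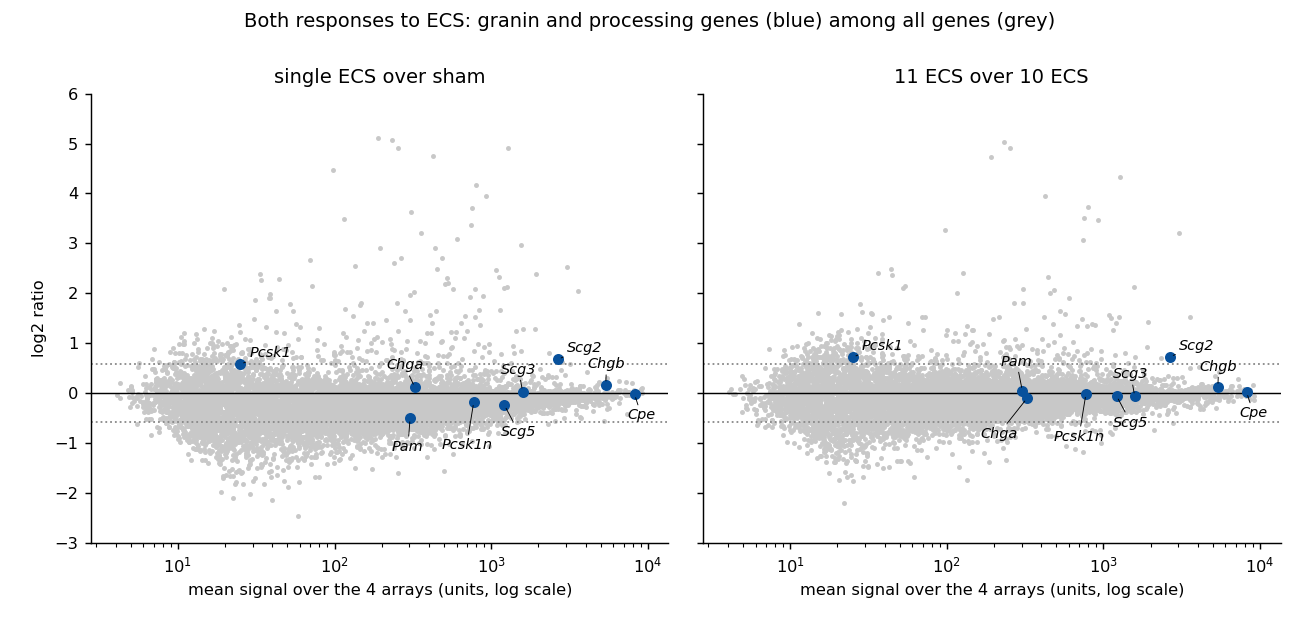
Log2 ratio (vertical axis) of single ECS over sham and of 11 ECS over 10 ECS against the mean signal over the 4 arrays (horizontal axis, log scale); grey points are all genes with a value, blue points the 9 genes, and dotted lines mark 1.5-fold. Scg2 stands above the limit among bright genes in both panels, while Pcsk1 lies where dim genes scatter widely.

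The genes whose pattern over the 4 arrays was nearest to that of Scg2 were Stk40, Cyp51 and Lratd1, by the Euclidean distance over the 3 log2 ratios to sham, among 5506 genes with at least 100 units on all arrays. Stk40, a serine/threonine kinase, was at a distance of 0.18. It read 324 units after a single ECS against 204 in sham, and 353 units after 11 ECS against 211 after 10 ECS. Cyp51, a demethylase of cholesterol synthesis, was at 0.28. Its log2 ratios were 0.62 for single ECS over sham and 0.40 for 11 ECS over 10 ECS. Lratd1 was at 0.29, with log2 ratios of 0.79 and 0.58 in these comparisons. No other gene was within 0.3. Likeness over 4 arrays describes these values and nothing of shared control.

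Of the other genes of the peptide pathway, few were called in either response. The remaining members of the granin family in the lists used here were Vgf, not analysed here for want of a probe set, and Gnas, whose locus also encodes the granin-like protein NESP55. Gnas read 4418 units after a single ECS against 4539 in sham, and 4090 units after 11 ECS against 4202 after 10 ECS. Its log2 ratio was -0.04 in both responses. A dimmer probe set of Gnas read 40.9 units after a single ECS against 63.4 in sham, with log2 ratios of -0.63 and -0.15 in these responses. Another dim probe set gave -0.25 and 0.07, and the last was under the floor on all arrays. Which transcripts of the locus each probe set reads was not examined.

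For single ECS over sham, 0 of 6 other convertases were called higher, against 3.08% of all genes. Called lower was 1 of 6, against 15.4%. The gene was Mbtps1, the site-1 protease of the Golgi, at 320 units after a single ECS against 528 in sham, a log2 ratio of -0.73. A dimmer probe set of Mbtps1 gave 0.46. In the later response, 0 of 6 were called in either direction, against 3.48% of all genes higher and 6.92% lower. Furin, the convertase of the constitutive pathway, had log2 ratios of 0.17 and 0.28 in these responses. After the course, Pcsk5 (PC5/6) was at 122 units after 10 ECS against 76.6 in sham, and at 109 units after 11 ECS against 62.2 after a single ECS. The log2 ratios were 0.68 and 0.81. Each of the 4 probe sets of Pcsk5 was higher for 10 ECS over sham, from 0.27 to 0.68. All but the brightest were dim on these arrays, at 12.2 to 24.4 units, where the floor is 12.

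Over the 4 comparisons, 2.98% to 4.39% of all genes were called higher and 4.31% to 15.4% lower. Enzymes that trim, cyclize or sulfate peptides stayed within the limit, with 0 of 10 measured genes called in any of the 4 comparisons. Their lowest log2 ratio was -0.56, for the aminopeptidase Rnpep, which read 90.9 units after 11 ECS against 134 after 10 ECS. Among genes that supply copper and ascorbate, the cofactors of Pam, 0 of 5 were called higher for 11 ECS over 10 ECS. The share of all genes was 3.48%. For single ECS over sham, 1 of 5 was called higher, against 3.08%. The gene was Atp7a, the copper pump of the Golgi, at 179 units after a single ECS against 99.4 in sham. It was at 99.2 units after 11 ECS against 71.3 after 10 ECS. Its log2 ratios were 0.85 and 0.48, and its other probe set gave 0.41 and 0.12. Cyb561, the cytochrome of the vesicle membrane that regenerates ascorbate, had log2 ratios of -0.32 and -0.42.

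In the release machinery of dense core vesicles, 0 genes were called higher in either response, against 3.08% and 3.48% of all genes. Of 19 measured genes, 2 were called lower for single ECS over sham, against 15.4% of all genes. For 11 ECS over 10 ECS, 2 of 18 were called lower, against 6.92%. Rab3d, a small GTPase of secretory vesicles, was among them each time, beside Syt9 in the first response and Unc13b in the later one. Syt9 was dim, at 18.4 units after a single ECS against 35.8 in sham. Rab3d read 64.1 units after a single ECS against 161 in sham, and 62.4 units after 11 ECS against 145 after 10 ECS. These log2 ratios of -1.33 and -1.22 were the lowest of the list, and all 4 of its probe sets were below 0 in both responses. For 10 ECS over sham, 1 of 19 was called higher, against 2.98% of all genes, and 3 were called lower, against 7.2%. The higher one was Unc13b, a priming factor of vesicle release, at 321 units after 10 ECS against 170 in sham, a log2 ratio of 0.92. The same 10 ECS array enters its lower call for 11 ECS over 10 ECS. The lower ones were Syt7, at -0.63, and dim genes. The list median for single ECS over sham was -0.20, 0.04 above that of all genes.

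Peptide-degrading enzymes were called lower in 2 of 9 cases for single ECS over sham, against 15.4% of all genes. They were called higher in 0, against 3.08%. The endothelin-converting enzymes Ece1 and Ece2 had log2 ratios of -0.67 and -0.83, and a dimmer probe set of Ece1 gave 0.27. For 11 ECS over 10 ECS they were at 0.17 and 0.19, and for 10 ECS over sham at -0.63 and -0.69. Sham was the highest of the 4 arrays for the brighter probe set of each gene. The dimmer probe set of Ece2 gave -0.32 for single ECS over sham, -0.66 for 11 ECS over 10 ECS and -0.08 for 10 ECS over sham. For the dimmer one of Ece1, sham was the lowest array, at 7.1 units and under the floor. Of the peptide precursors that the granins travel with, 1 of 16 was called higher for single ECS over sham and 2 of 16 for 11 ECS over 10 ECS, with the dim gene Cort called lower for 11 ECS over 10 ECS. The shares of all genes called higher were 3.08% and 3.48%, and 6.92% were called lower for 11 ECS over 10 ECS. Bdnf, a neurotrophin sorted into these vesicles, read 2069 units after a single ECS against 471 in sham, and 1851 units after 11 ECS against 640 after 10 ECS. Penk, the enkephalin precursor, read 321 units after a single ECS against 231 in sham, and 1545 units after 11 ECS against 913 after 10 ECS. After the course, 5 of 16 precursors were called higher and 2 lower for 10 ECS over sham, where 0 of the 9 granin and processing genes were called. Of all genes, 2.98% were called higher and 7.2% lower there. Penk was at 1.98, Tac2 at 1.72, Gal at 1.54, Grp at 1.46 and Npy at 1.17 on the log2 scale in that comparison. The lower ones were Pdyn at -0.87 and Cartpt at -0.92. Cartpt was dim, at 17.3 units after 10 ECS against 32.8 in sham, and Tac2 was dim in sham, at 19.2 units against 63.3 after 10 ECS. These precursors and the Chgb and Scg2 log2 ratios of 0.20 and 0.19 were read against the same sham array.

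**Figure D5:**
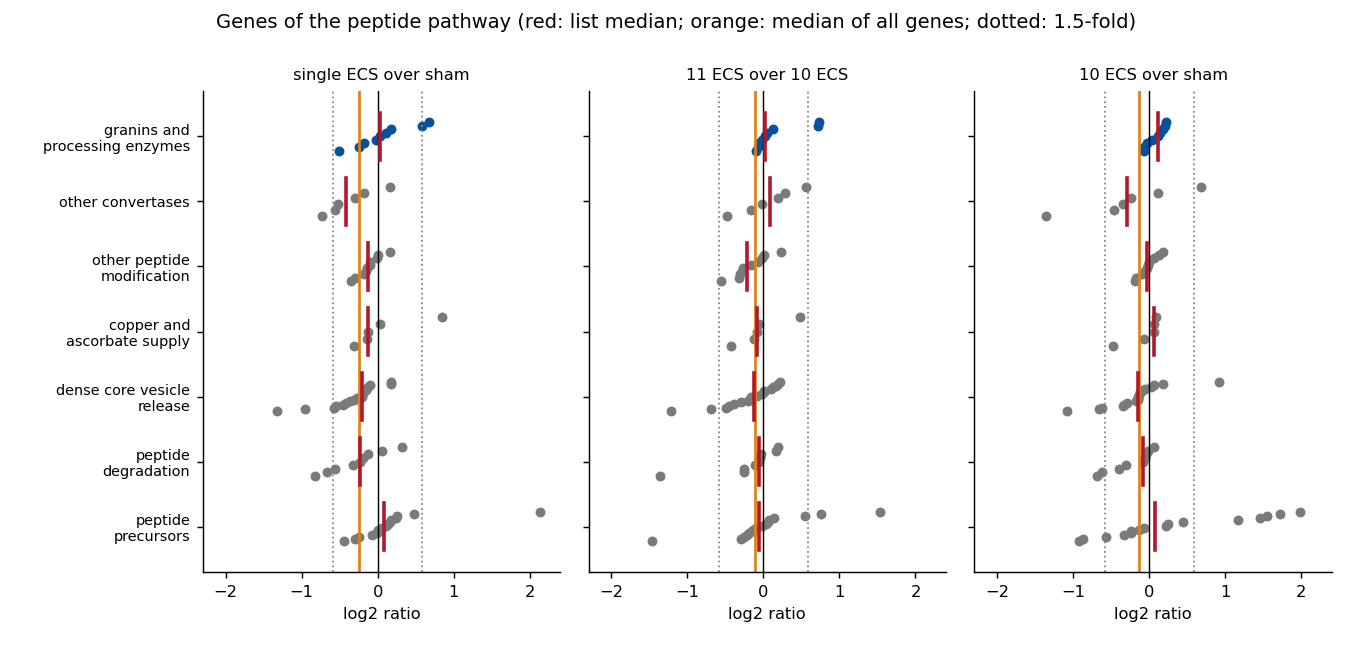
Log2 ratio (horizontal axis) of each measured gene, 1 point a gene, in the granin and processing genes and 6 lists of the peptide pathway, for 3 comparisons; red lines are list medians, the orange line is the median of all genes and dotted lines mark 1.5-fold. For 10 ECS over sham the granin and processing genes lie between -0.07 and 0.22, while peptide precursors reach 1.98.

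Beside the higher Scg2 and Pcsk1 values for 11 ECS over 10 ECS, 0 of 46 measured markers in 10 cell type lists were called higher, against 3.48% of all genes. The 4 called lower, against 6.92% of all genes, were the GC markers Dsp and Tdo2 and the meningeal markers Ogn and Slc6a13. For single ECS over sham, 1 of 45 was called higher, against 3.08% of all genes. It was the choroid plexus gene Ttr, at 216 units after a single ECS against 67.2 in sham. The other measured choroid plexus marker, Folr1, read 10.9 units after a single ECS against 14.7 in sham, and Otx2 was at 0.2 units against 0.6. The 7 interneuron markers, cells that also express granins, summed to 4787 units after a single ECS against 5111 in sham. They summed to 4672 units after 11 ECS against 4562 after 10 ECS, with 0 of 7 called in either response. Beside the lower Pam value, 6 of 45 markers were called lower for single ECS over sham, against 15.4% of all genes. The 6 were the GC markers Dsp at -0.60 and Tdo2 at -0.62, the oligodendrocyte markers Mobp at -0.61 and Mog at -0.62, and the meningeal markers Igf2 at -0.92 and Slc6a13 at -1.03 on the log2 scale. Slc6a13 was dim, at 16.6 units after a single ECS against 33.8 in sham. The 4 measured GC markers summed to 4131 units after a single ECS against 5295 in sham, and the 6 meningeal markers to 426 units against 567. The 4 measured oligodendrocyte markers summed to 5265 units after a single ECS against 6215 in sham. Median log2 ratios in that comparison were -0.53 for oligodendrocyte, -0.42 for GC and -0.45 for meningeal markers, where Pam was at -0.50. For 10 ECS over sham these medians were -0.40, -0.83 and 0.06 in the same order, where Pam was at -0.07. The part of any of these cells in the Pam value was not tested.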

How the data were processed

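RNA of the DG, pooled from 3 mice per group, was measured on 4 arrays. The authors amplified 100 ng of RNA and hybridised Affymetrix Mouse Genome 430A 2.0 arrays, and they deposited MAS5 intensity values, 1 per probe set and array on a linear scale (MAS5 is named in the submitters' processing notes without a version). The scaling between arrays and detection calls are not given in the sources used here. Groups were taken from the sample titles, since the free-text descriptions of 3 samples name another treatment.

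Of 22626 probe sets besides 64 control probe sets, 20380 had a single symbol, 691 several and 1555 none in the platform annotation. By Entrez identifier, 20351 matched the GRCm38.p6 gene table, and 0 symbols changed. Each gene was represented by the brightest of its probe sets, by mean signal. Signals under the 25th percentile, 12 units, were set to it, and no ratio was given where both arrays were at it. Log2 ratios were computed with numpy 2.4.6 and pandas 2.3.3 in Python 3.11.15, and figures with matplotlib 3.10.9. The code was tested on simulated data. The number of arrays limits the precision, and no test was run. Tried as alternatives were 3 scalings between arrays (same median, same mean after trimming 2% at each end, quantile), a floor of 50, no floor, and the median over probe sets.

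All 10 genes were named. From each pathway list and comparison up to 2 genes farthest from 0 were eligible, with at least 48.0 units on the brighter array and both arrays above the floor, besides Vgf, Fos, Arc, Calb1 and the 3 genes nearest in pattern to the gene with the widest range. The cell type markers other than Calb1, and Syt9, Cort, Grp, Npy, Pdyn and Cartpt, were named after their values were seen. The genes and lists were chosen with earlier results of these data known.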

Additional observations from a re-analysis of the deposited data

How the results depend on the processing

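Over the 6 alternatives, the difference between the median of the 9 genes and that of all genes kept its sign in all 4 comparisons. Most alternatives could hardly have changed it. Scaling to the same median or trimmed mean shifts both medians alike, and the floor settings leave the ratios of bright genes as they were. Quantile normalization could move it, to 0.17 for single ECS over sham, 0.05 for 11 ECS over 10 ECS, 0.24 for 10 ECS over sham and 0.17 for 11 ECS over single ECS. Scg2 remained called in both responses, with log2 ratios of 0.68 to 0.98 for single ECS over sham and 0.73 to 0.87 for 11 ECS over 10 ECS. The floor and probe set alternatives could not change these ratios, since Scg2 had a single bright probe set. Scaling to the same median or trimmed mean could only raise them, since sham and 10 ECS had the higher medians and trimmed means. Quantile normalization gave 0.73 and 0.76. The number of genes called higher for single ECS over sham was 2 with arrays scaled to the same median, 2 with the same trimmed mean and 2 with quantile normalization, where 6.60%, 4.37% and 5.61% of all genes were called higher, against 3.08% as deposited. Pcsk1, at 0.58 as deposited, reached 0.88 with the same median. For 11 ECS over 10 ECS the number called was 1 with a floor of 50, where Pcsk1 has no value by construction. Scaling to the same median raises the log2 ratio of single ECS over sham by the same amount for each gene above the floor, and the median of all genes in that comparison became 0.05. The sign of 3 of the 9 genes changed with the scaling for single ECS over sham, 4 for 11 ECS over 10 ECS, 3 for 10 ECS over sham and 1 for 11 ECS over single ECS. Those were ratios of Chga, Scg3, Scg5, Pcsk1n, Cpe and Pam, of which the farthest from 0 were Scg5 at -0.24 and Pcsk1n at -0.18 for single ECS over sham, and none was called. No paired analysis was possible because each group had 1 array. What limits these values is the lack of a repeat array, and for Pcsk1 also a signal near the floor.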
